A study of Homo sapiens with 4 samples.

Results

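The genes of the MLL and SET1 histone methyltransferase complexes were examined in HEK-293 cells, an established line derived from human embryonic kidney. The 10 genes are MLL, MLL2, MLL3, MLL5, SETD1A, SETD1B, KDM6A, ASH2L, WDR5 and RBBP5, taken by symbol from a table of 24934 gene rows, and each was found there on 1 row. The set was chosen by the measured ratio of MLL2, which stood among the lowest of all genes with the siRNAs against ZSCAN5A. The values of that comparison are therefore a description, and they support nothing by themselves.

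Cells received 10 nM of siRNA for 48 h with a lipid reagent. The siRNAs were si4 or si5 against ZSCAN5A, si1 against ZSCAN5B, or a scrambled negative control. Every culture was thus treated with an siRNA, and none was left untreated. ZSCAN5A and ZSCAN5B encode zinc finger proteins that bind RNA polymerase III genes, and the comparisons ask which genes change when either is reduced. There was 1 mRNA library for each siRNA, 4 in all. Differences therefore cannot be set against replicates, and the main values carry no p-value. Values are FPKM, the number of fragments scaled for transcript length and library depth. In such bulk RNA, a lower level in each cell and fewer cells that express a gene cannot be told apart.

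MLL and SET1 proteins place methyl groups on lysine 4 of histone H3 (H3K4), a mark of active promoters and enhancers. Each catalytic protein works in a complex with a shared core of WDR5, RBBP5, ASH2L and DPY30, without which its activity is weak. SETD1A and SETD1B account for much of the trimethylation at promoters. MLL is known for keeping HOX genes active and for its rearrangement in leukaemia, and MLL2 and MLL3 mainly monomethylate enhancers. MLL2 and MLL3 complexes also hold KDM6A (UTX), which removes methyl groups from lysine 27 of the same histone. The symbols used here are those of the table. MLL is now KMT2A, MLL2 is KMT2D, MLL3 is KMT2C and MLL5 is KMT2E. Because the name MLL2 has also been used for KMT2B, its locus was checked, and it lies on chromosome 12 from 49412758 to 49449107 (hg19), which is the locus of KMT2D.

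The siRNA target sequences are shown because the 10 genes can be compared with them. Capitals mark the 7 bases that pair with the seed of the guide strand (bases 2 to 8), which is the part through which an siRNA can also bind other mRNAs. Each is written 5′ to 3′ as the target strand.
si4 (ZSCAN5A): cgagaagaggtttACGTGTAa
si5 (ZSCAN5A): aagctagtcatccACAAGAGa
si1 (ZSCAN5B): acgtgtgcaataaATCATTTa
On GRCh37 (hg19), the si4 site lies at chr19:56733332-56733352 and the si5 site at chr19:56733307-56733327, both on the minus strand in the coding sequence of exon 6 of ZSCAN5A. The si1 site lies at chr19:56701591-56701611, on the minus strand in the coding sequence of exon 5 of ZSCAN5B.

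The seed sites were searched on the sense strand of annotated 3′ UTRs. ACGTGTA, the site of si4, was found in the 3′ UTR of none of the 10 genes, against 3.36% of 12038 expressed genes. ACAAGAG, the site of si5, was found in those of 2 of the 10, MLL and ASH2L, against 1444 of the 12038. ATCATTT, the site of si1, was found in that of 1 of the 10, RBBP5, against 23.4% of genes. The sites in MLL and RBBP5 are shown with 10 bases on either side.
MLL, si5 site: aggtttccctACAAGAGggaaagaagg
RBBP5, si1 site: gtctcactccATCATTTaaaaccagta
They lie in the 3′ UTR at chr11:118395791-118395817 on the plus strand and at chr1:205056197-205056223 on the minus strand of GRCh37. MLL2, MLL3 and SETD1B, the genes with the lowest ratios below, held none of the 3 sites in the annotated 3′ UTR. These matches are a description of the sequences and not of binding. Coding sequences, other transcripts of the genes and shorter matches to the seed were not searched.

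The targeted genes were read first. ZSCAN5A was at 0.730 FPKM in the si4 library and 0.713 in the si5 library, below the 2.42 of the control and the 2.53 of si1. ZSCAN5B was at 0.0948 FPKM with si1, roughly 16 fragments, and the control was at 0.0903, roughly 15 fragments. The former was 105.0% of the latter, with an exact Clopper-Pearson 95% interval of 48.6% to 227.9% that covers counting error only. ZSCAN5B was at 36.6% with si4, from roughly 6 fragments, with an interval of 11.6% to 99.9%. It was at 73.4% with si5, from roughly 17, with an interval of 34.5% to 157.8%. Since its target was not lower in this library at this depth, the si1 sample will be named the library labelled ZSCAN5B knockdown. The study itself reports less ZSCAN5B transcript by qRT-PCR and less protein by Western blot after its knockdown in these cells. The 4 libraries held roughly 52300000 to 80800000 fragments, with si5 the deepest. These are estimates, and they span a wider range than the reads per sample that the study states. Among markers of HEK-293 cells, VIM, KRT8, KRT18, CDH2 and NEFM were between 8.46 and 359 FPKM in every library. PAX2, a kidney transcription factor, was at 0.584, 0.615 and 0.608 FPKM with si4, si5 and si1 against 1.16, or 50.5%, 53.1% and 52.5% of the control. This marker was thus past the 1.5-fold limit used below in the same libraries as MLL2, and its part in the results was not tested. Of markers of other cell types, PTPRC, PECAM1, ALB and HBB were all below 0.04 FPKM, and COL1A1, a fibroblast collagen, was at 59.6%, 74.5% and 84.6% of its control level of 1.85 FPKM with si4, si5 and si1. It was thus below the control in each, and past the limit with si4, and its part in the results was not tested either.

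All 10 genes were expressed at 1 FPKM or above in each library. In the scrambled control the core subunit WDR5, a WD40 protein that binds the catalytic subunits, was highest at 27.3 FPKM. It was followed by ASH2L at 18.4, KDM6A at 17.1, SETD1A at 8.65, RBBP5 at 7.60, MLL5 at 7.46, MLL at 5.90, MLL2 at 5.65, MLL3 at 4.53 and SETD1B at 3.19 FPKM. RBBP5 and MLL5, and likewise MLL and MLL2, stood closer together than the SD between si4 and si5 for MLL5 (0.307 FPKM) or MLL2 (0.305 FPKM). The order of the other neighbours cannot be set against replicates of the control, since there is 1 such library. Averaged over si4 and si5, and unlike in the control, SETD1A at 6.39 FPKM lay below RBBP5 at 8.13 and MLL5 at 6.56, and MLL2 lay below MLL3. Every catalytic gene was weaker than each of WDR5 and ASH2L in all 4 libraries.

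**Figure D1:**
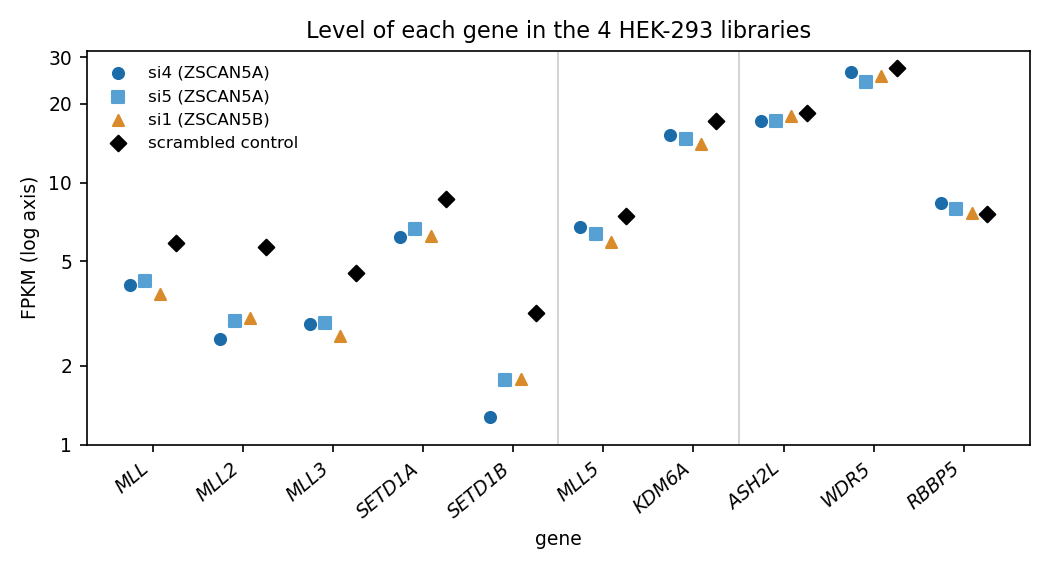
FPKM of each gene (log axis) in the si4, si5, si1 and scrambled control libraries, 1 point per library, with catalytic genes on the left, MLL5 and KDM6A in the middle and core subunits on the right. The control point is the highest for 9 of the 10 genes and the lowest for RBBP5.

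The 5 catalytic genes, MLL, MLL2, MLL3, SETD1A and SETD1B, were below the scrambled control in all 3 siRNA libraries. The same held for 36.2% of 13078 genes, and SETD1A was within 1.5-fold of the control in each. MLL2 and SETD1B were at about the same share of the control, 48.5% and 47.8% in the mean of si4 and si5, whereas the core subunits were at 92.3% to 107.0%. A gene was counted as lower or higher when its ratio to the control was beyond 1.5-fold and either side of the comparison held a library at 1 FPKM or more. By this rule 3 of the 10 genes were lower with the ZSCAN5A siRNAs, MLL2, MLL3 and SETD1B, and none was higher, beside 3.11% of 12993 genes lower over the whole table. With si1 the genes past it were the same 3 and MLL, 4 of the 10, beside 3.17% of 12921 genes. Genes past the limit on the higher side made up 0.677% and 0.844% of the table in these comparisons. The split of all genes was 404 lower and 88 higher with the ZSCAN5A siRNAs and 409 and 109 with si1, and with libraries rescaled to the same sum it was 961 and 48, and 894 and 68. MLL2, MLL3 and SETD1B passed the limit in each of the 3 siRNA libraries singly, which 1.12% of 12836 genes did in the downward direction. The share of genes lower in a single library was 5.21% with si4 and 2.95% with si5, of which the same 3 genes of the set were part each time. The comparisons share 1 control library, so their values are given side by side and not as separate evidence. limma on log2(FPKM + 1), whose 1 residual degree of freedom came from si4 against si5 alone, called none of the 10 at an adjusted p below 0.05 in either comparison. Their adjusted p ranged from 0.399 to 0.697 with the ZSCAN5A siRNAs and from 0.497 to 0.992 with si1, and 5 of the 10 had an unadjusted p below 0.05 in each, beside 12.3% and 9.92% of 13078 genes. The control and si1 are single libraries assumed to vary like si4 and si5, and the set was chosen on MLL2, so nothing is read from these shares.

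MLL2 had an FPKM of 2.52 with si4, 2.96 with si5 and 3.05 with si1, against 5.65 in the control. The siRNA libraries lay together, at 44.6%, 52.3% and 54.0% of the control, and the control stood apart above them. Over a transcript of 20635 bases, these values correspond to roughly 2974, 4927, 3345 and 6101 fragments in the same order. The exact 95% interval of the si4 ratio was 42.7% to 46.7% and that of si5 50.3% to 54.3%. The intervals cover counting error only and say nothing of variation between cultures. By its log2 ratio of -1.04, MLL2 was number 40 from the lowest of 12993 genes with the ZSCAN5A siRNAs, and by -0.89 it was number 71 of 12921 in the library labelled ZSCAN5B knockdown.

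SETD1B, the less expressed of the 2 SET1 enzymes, had an FPKM of 1.27 with si4, 1.77 with si5 and 1.78 with si1, against 3.19 in the control. It was the gene of the set in which si4 and si5 differed most, by a log2 ratio of -0.47, with si4 the lower. Its log2 ratio to the control was -1.07 in the mean of si4 and si5 and -0.84 with si1. It was number 38 from the lowest with the ZSCAN5A siRNAs, 2 places before MLL2. The exact interval of the ratio was 36.4% to 44% of the control for si4 and 51.4% to 60.0% for si5, from roughly 623 and 1224 fragments against 1426. These intervals do not overlap, so the difference between the siRNAs was larger than counting error. SETD1A, its paralog on chromosome 16, had an FPKM of 6.17, 6.62 and 6.26 against 8.65, and its log2 ratios of -0.44 and -0.47 were inside the fold limit. With libraries rescaled to the same sum they were -0.59 and -0.60, past it.

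MLL3, the paralog of MLL2, lies on chromosome 7 from 151832010 to 152133090. Against 4.53 FPKM in the control, it was at 2.89 in the si4, 2.92 in the si5 and 2.59 in the si1 library. The si4 and si5 values were within 0.02 of each other on the log2 scale. The log2 ratio was -0.64 with the ZSCAN5A siRNAs, just past the limit, and -0.80 with si1. With a pseudocount of 1 FPKM the former was -0.50 and inside the limit. Parts of MLL3 have near-identical copies elsewhere in the genome, and how the counting shared such reads is not known, so its level is uncertain. MLL, which lies at chromosome 11 from 118307205 to 118397539, was likewise below its control level of 5.90 FPKM, at 4.07 in the si4, 4.2 in the si5 and 3.75 in the si1 library. At log2 ratios of -0.51 and -0.65 it was just inside the limit with the ZSCAN5A siRNAs and past it with si1, where a pseudocount of 1 FPKM brought it to -0.54 and inside. Within the set, MLL2 and SETD1B were lowest with si4, whereas MLL and MLL3 were lowest with si1.

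MLL5 and KDM6A were below the control by less. MLL5 carries a SET domain but is not known as an active H3K4 methyltransferase, and it does not bind the shared core. Its FPKM was 6.78 with si4, 6.34 with si5 and 5.91 with si1, against 7.46 in the control. The log2 ratios were -0.18 with the ZSCAN5A siRNAs and -0.33 with si1. KDM6A had 15.2, 14.6 and 14 against 17.1, log2 ratios of -0.20 and -0.29. In both genes every siRNA library was below the control, the counting intervals were below 100%, and none was past the fold limit.

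The core subunits were near the control. WDR5 had an FPKM of 26.3 with si4, 24.1 with si5 and 25.5 with si1, against 27.3. ASH2L, which with RBBP5 stimulates the SET domain, had 17.1, 17.2 and 17.9 against 18.4. RBBP5 had 8.32, 7.94 and 7.63 against 7.60 and was the 1 gene of the set above the control in all 3 libraries, although with si1 by a log2 ratio of only 0.01, and with each library rescaled to the same sum it was below the control in both comparisons. The log2 ratios of these 3 genes lay between -0.12 and 0.10 with the ZSCAN5A siRNAs and between -0.10 and 0.01 with si1. Those of the 5 catalytic genes lay between -1.07 and -0.44, and between -0.89 and -0.47, so the groups did not overlap in either comparison. The groups also differ in coding length. In the length decile of the catalytic genes the median of all genes was -0.17 in both comparisons. In those of the core genes it was -0.05 to 0.00 with the ZSCAN5A siRNAs and -0.04 to 0.01 with si1. With length and GC medians removed, SETD1A lay next to WDR5 with the ZSCAN5A siRNAs, as given below. Within a library, the summed FPKM of the catalytic genes of the set was 52.4% of that of its 3 core genes in the control. It was 32.7%, 37.5% and 34.2% with si4, si5 and si1. The level of this share depends on which genes are summed. With the catalytic gene MLL4 added it was 83.6% in the control and 51.4%, 56.9% and 53.4% in the siRNA libraries, and with DPY30 also added to the core it was 38.2% against 22.1%, 25.1% and 22.9%. Within a library such a share does not depend on how the libraries are scaled. It can depend on the trend with coding length given below, since the catalytic genes are long and the core genes short. The part of that trend in the share was not tested.

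**Figure D2:**
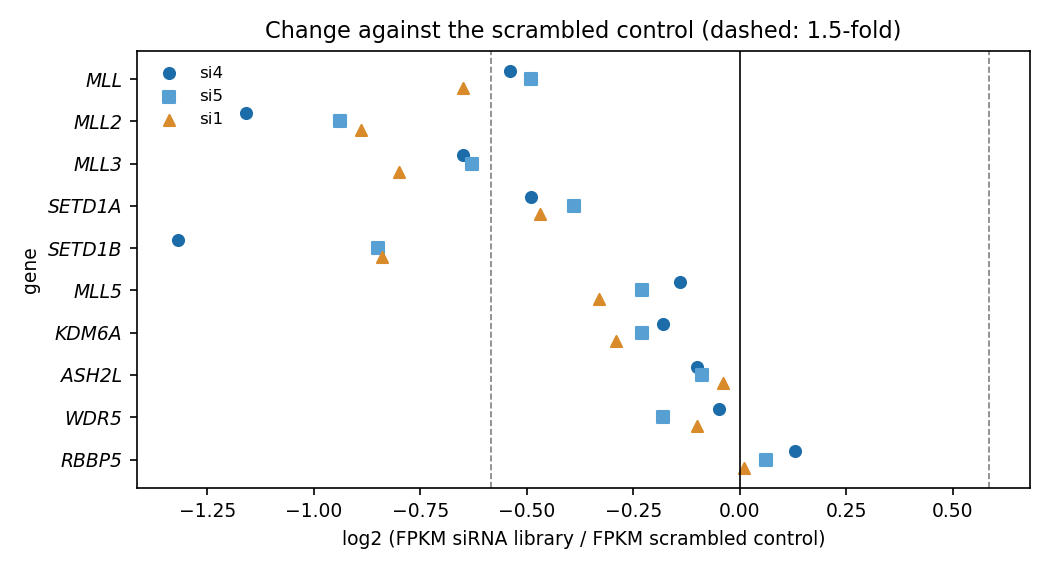
log2 ratio of the FPKM in each siRNA library to the scrambled control, 1 point per library, with dashed lines at 1.5-fold. MLL2, MLL3 and SETD1B lie left of the limit in all 3 libraries, and ASH2L, WDR5 and RBBP5 lie close to 0.

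The control was above all 3 siRNA libraries for 9 of the 10 genes, beside 36.2% of 13078 genes. The control was below all 3 for RBBP5, beside 29.9% of genes. The median log2 ratio of the 10 was -0.32 with the ZSCAN5A siRNAs and -0.40 with si1, while the medians of all genes were -0.02 and -0.01. With an expression limit of 5 FPKM, which leaves fewer genes, the medians of the set were -0.19 and -0.31. With the medians of genes in the same decile of coding length and of like GC content removed, a step chosen after the data were seen, they were -0.14 and -0.25. Between the siRNAs the set differed less. None of the 10 differed by 1.5-fold between si4 and si5, which 2.53% of 12800 genes did. The log2 ratio between the ZSCAN5A siRNAs and si1 lay between -0.22, for SETD1B, and 0.16, for MLL3, so that none differed by 1.5-fold here either, beside 1.31% of 12888 genes.

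Transcript size moved with these results. MLL2 has a coding length of 16611 bases, MLL3 of 14733, MLL of 11916, SETD1B of 5898, MLL5 of 5574, SETD1A of 5121 and KDM6A of 4359. All 7 belong to the longest decile of coding lengths, from 3486 bases upwards, whereas RBBP5 has 1614, ASH2L 1884 and WDR5 1002 bases. Over all genes, the median log2 ratio with the ZSCAN5A siRNAs went from 0.14 in the shortest decile to -0.17 in the longest, and with si1 from 0.15 to -0.17. In the longest decile 8.82% of 1202 genes were lower with the ZSCAN5A siRNAs and 8.17% of 1200 with si1. Within this decile the share with the ZSCAN5A siRNAs was 15.7% of 579 genes whose transcript GC content was above the median of 48.0% for all genes, and 2.41% of the other 623.

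Against the 1202 genes of the longest decile, 2 were lower than MLL2 and 1 was lower than SETD1B with the ZSCAN5A siRNAs, the comparison by which the set was chosen. With si1, 11 of 1200 were lower than MLL2 and 19 lower than SETD1B. With the ZSCAN5A siRNAs MLL3 was lower than all but 6.57% of them, and MLL than all but 11.9%, and with si1 these shares were 2.17% and 5.17%. MLL5 and KDM6A, at -0.18 and -0.20, lay near the median of the decile with the ZSCAN5A siRNAs. With si1, at -0.33 and -0.29, 324 and 390 of the 1200 lay below them. GC content divided the set in another way. It was 59.8% in the MLL2 transcript, 61.4% in SETD1B and 62.6% in SETD1A, but 46.9% in MLL and 45.0% in MLL3, so that genes past the limit were found on both sides of the median. In a step chosen after the data were seen, the median of genes in the same decile of coding length and of like GC content was subtracted. The longest decile reaches from 3486 to 26775 bases with a median of 4668, so this step does not match the length of MLL2, MLL3 or MLL. After it, MLL2, MLL3 and SETD1B remained past the limit with the ZSCAN5A siRNAs, at -0.74, -0.59 and -0.76. With si1, MLL2 and MLL3 remained, while SETD1B at -0.56 and MLL at -0.42 did not. The same step brought SETD1A to -0.13 and MLL to -0.28 with the ZSCAN5A siRNAs, so that SETD1A lay next to WDR5 at -0.10, the lowest core gene. With si1 SETD1A was at -0.19 and WDR5 at -0.07. The part of length and GC content in the values of single genes was not tested.

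**Figure D3:**
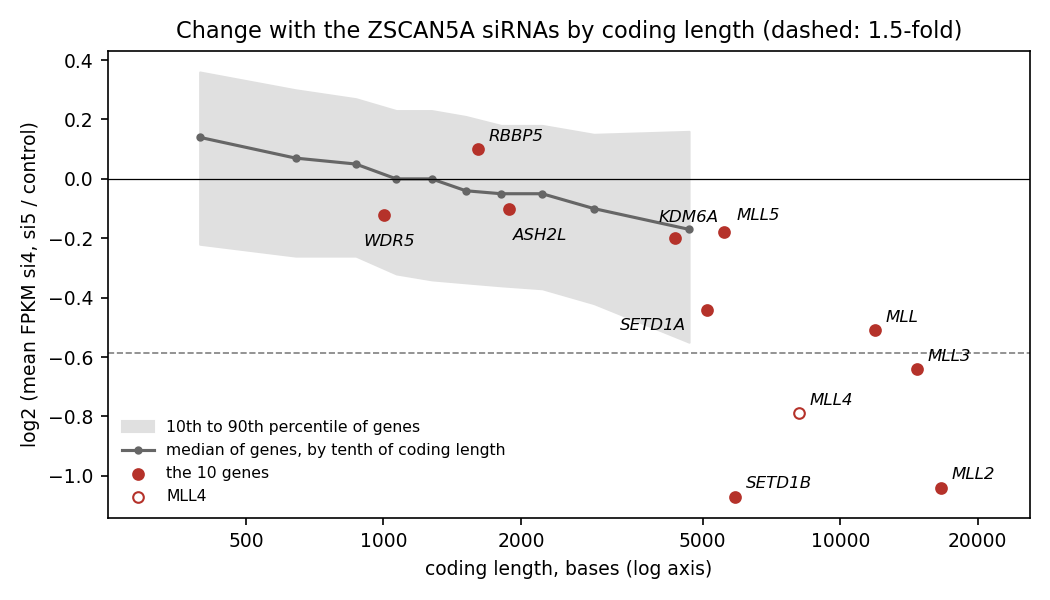
log2 ratio to the control, averaged in FPKM over si4 and si5, against coding length in bases (log axis), with the median (line) and the 10th to 90th percentile (band) of genes by decile of coding length, drawn at the median length of each decile. The 10 genes are filled and MLL4 is open, and MLL2, MLL3, SETD1B and MLL4 lie under the dashed 1.5-fold line.

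The other subunits of the complexes were taken from a list of 15 genes, all of them expressed. With the ZSCAN5A siRNAs 2 were lower and 1 was higher, beside 3.11% and 0.677% of all genes. The median log2 ratio was -0.03, and with si4 and si5 singly it was 0.03 and -0.05. With si1 the counts were the same, beside 3.17% and 0.844%, and the median was -0.12. MLL4 (KMT2B), the remaining catalytic subunit, lies on chromosome 19 from 36208921 to 36229779. It was expressed at 9.66, 9.55 and 9.79 FPKM with si4, si5 and si1, against 16.6 in the control. At log2 ratios of -0.79 and -0.76, it was past the limit in both comparisons, like MLL2 and MLL3. HCFC1, a scaffold of the SET1 and MLL complexes, had log2 ratios of -0.65 and -0.55, past the limit with the ZSCAN5A siRNAs. NCOA6, a nuclear receptor coactivator held by the MLL2 and MLL3 complexes, had -0.58 and -0.60, past the limit with si1. It was also past the limit with si4 alone, at -0.65, but not with si5 alone, at -0.52. The gene that was higher was BOD1, named for its role in chromosome biorientation, with an FPKM of 45.2, 35.0 and 41.0 against 25.1. It was past the limit with si4 and si1 but not with si5 alone, at a log2 ratio of 0.48. DPY30, the remaining core subunit, was at 0.04 and 0.10, and MEN1, which tethers MLL, at -0.19 and -0.20.

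Enzymes that act on the same or related marks were counted in the same way. Their counts stand beside 3.11% of all genes lower with the ZSCAN5A siRNAs and 3.17% with si1. Of 6 genes of H3K4 demethylation none was past the limit with the ZSCAN5A siRNAs, where RCOR1, the corepressor that holds KDM1A on chromatin, had the lowest log2 ratio at -0.41 and KDM1B the highest at 0.09. RCOR1 was lower with si1, at -0.80. Of 12 genes of H3K27 methylation and its removal, KDM6B, the paralog of KDM6A, was the only 1 past the limit, with an FPKM of 2.38, 2.64 and 3.02 against 4.73. PHF19, a Polycomb partner, had the highest ratio of this list with the ZSCAN5A siRNAs at 0.21, and MTF2, another such partner, the highest with si1 at 0.25. Of 20 other histone lysine methyltransferases, DOT1L, which methylates lysine 79 of histone H3, was past the limit in both comparisons at -0.78 and -0.72, and SUV39H2 was highest at 0.34 and 0.33. SETD7 was past the limit with si5 alone, at -0.73, but not with si4 alone, at -0.05.

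Of 8 histone acetyltransferases 2 were lower in both comparisons. EP300 had an FPKM of 7.22 with si4, 6.86 with si5 and 6.84 with si1, against 11.0. CREBBP had 4.28, 4.16 and 4.30 against 6.54. Both encode large coactivators that acetylate histones at enhancers. KAT5 was the highest of this list at 0.25 and 0.28. KAT2B was past the limit with si4 alone, at -0.67, but not with si5 alone, at -0.25. The median log2 ratio of the list was -0.27 with the ZSCAN5A siRNAs, against -0.15 for the H3K4 demethylation genes, -0.08 for the H3K27 genes and -0.12 for the other methyltransferases. With si1 these medians lay closer together, at -0.18, -0.04, -0.17 and -0.12 in the same order. With si4 and si5 singly, that of the other methyltransferases was -0.08 and -0.05, and that of the H3K27 genes -0.10 and -0.03. Among all genes 3.79% were past the limit in either direction with the ZSCAN5A siRNAs and 4.01% with si1. The genes lower in either comparison here also have long coding sequences, 4929 bases for KDM6B, 4611 for DOT1L, 7242 for EP300 and 7326 for CREBBP, except RCOR1 with 1455. KAT2B has 2496 bases and SETD7 1098.

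HOXA genes and MEIS1 are textbook targets of MLL in blood cells and leukaemia. With the ZSCAN5A siRNAs none of the 12 was past the limit, 11 were below the control, beside 53.3% of 12993 genes, and their median log2 ratio was -0.29. The values differed between the si4 and si5 libraries, with a median of -0.37 and 2 genes lower in the former, beside 5.21% of genes, and -0.17 and 1 gene in the latter, beside 2.95%. That difference was not tested. The genes lower with si4 were HOXA5, at -0.88 against -0.12 with si5, and HOXA6, at -0.73 against -0.15, and the gene lower with si5 was HOXA4, at -0.59. With si1 all 12 were below the control, beside 51.5% of 12921 genes, and the median was -0.37. HOXA4 and HOXA7 were past the limit there at -0.63 and -0.66, beside 3.17% of genes. HOXA4 was also the lowest with the ZSCAN5A siRNAs at -0.57, and HOXA10 was the highest at 0.10. These genes are short, unlike the catalytic genes, with coding lengths of 690 to 1329 bases.

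**Figure D4:**
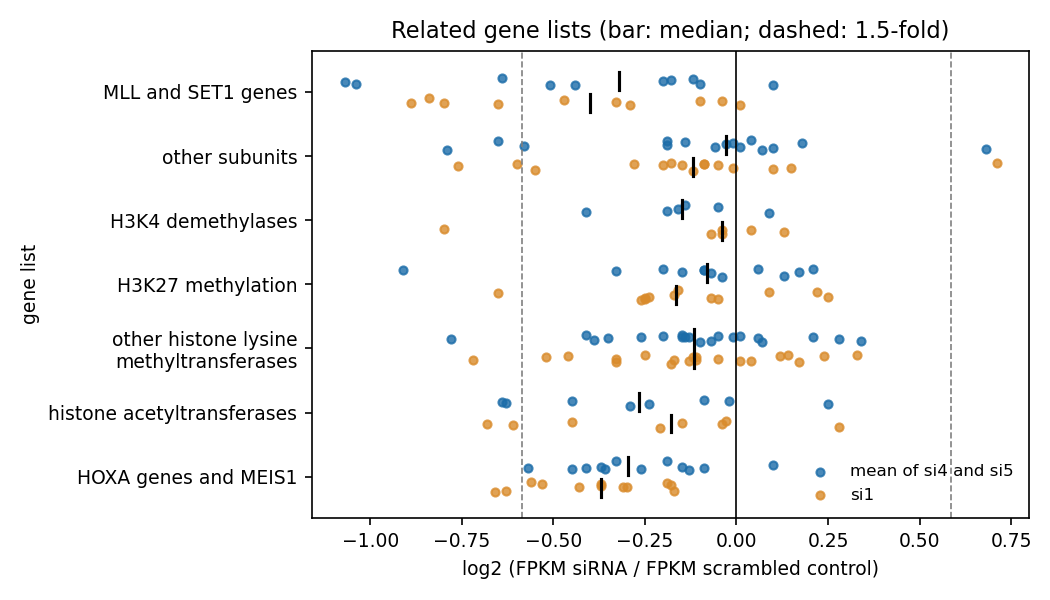
log2 ratio to the scrambled control of every gene in 7 lists, with 1 point per gene for the mean of si4 and si5 and 1 for si1, the median of each list as a bar and dashed lines at 1.5-fold. The lowest points belong to the MLL and SET1 genes, and BOD1 is the 1 gene past the limit on the right.

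The genes whose pattern was most like that of MLL2 were sought among 12411 genes at 1 FPKM or above in every library, by the distance between their 3 log2 ratios to the control. The nearest were FLJ14186 at a distance of 0.0798, LOC100652999 at 0.12, POLR2A at 0.159, ZNF70 at 0.187 and SETD1B at 0.188. SETD1B was thus among the 5 nearest, over 3 ratios that share 1 control. POLR2A, the catalytic subunit of RNA polymerase II, had an FPKM of 14, 14.9 and 16.2 against 28.5. ZNF70, a zinc finger gene, had 1.13, 1.33 and 1.33 against 2.33.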

How the data were processed

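RNA of HEK-293 cells was sequenced as 1 mRNA library per siRNA. The authors deposited FPKM values. Per the labels, the reads were processed with CASAVA 1.8.2, Trimmomatic 0.30, TopHat2 2.1.0 and Cufflinks 2.2.1 on hg19. Labels and the study's methods name different library kits. Values were used as deposited, with 0 other columns of per-sample values, and FPKM keeps no counts. Depth was estimated from low FPKM values, under 0.3 in every library, that stood in whole-number proportions (61.9% of 3007 genes, numbers up to 40, tolerance 0.05%). Fragments of a gene are this depth times FPKM and the length of the canonical transcript in GENCODE 44 on GRCh37, and are approximate.

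The mean of si4 and si5, or si1, was divided by the control without a pseudocount. Coding models were matched for 92.1% of 13078 expressed rows, 1109 of them through an older symbol. Coding length replaced the protein length planned. Where a symbol had several rows, the highest was used. Members and lists were chosen with earlier results of these data known. Named were the 10 genes, the targets, list genes past the limit or most extreme in their list, and the 5 genes nearest to MLL2. MEN1, DPY30, MTF2, HOXA5, HOXA6, KAT2B, SETD7 and the coding lengths were added after the values were seen.

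Python 3.11.15, NumPy 2.4.6, pandas 2.3.3, SciPy 1.17.1, matplotlib 3.10.9 and limma 3.58.1 in R 4.3.3 were used and tested on simulated data. Alternatives covered scaling, pseudocount, expression and fold limits, single siRNAs and limma.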

Additional observations from a re-analysis of the deposited data

Results flagged for a closer look

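Of the 15 other subunits, 2 lay above the control with si4 and si5 and below it with si1, as 4.59% of 13029 genes did. PAXIP1, a subunit of the MLL2 and MLL3 complexes, had log2 ratios of 0.10 and 0.04 with si4 and si5 and -0.09 with si1. KAT8, an acetyltransferase found with MLL, had 0.11 and 0.10, and -0.01 with si1, which became 0.01 with median-ratio scaling. With libraries rescaled to the same sum both genes were below the control in all 3 siRNA libraries. The difference between the targets was not tested for either gene.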

How the results depend on the processing

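The number of the 10 genes past the fold limit was 3 with the ZSCAN5A siRNAs and 4 with si1 as reported. With libraries rescaled to the same sum it was 5 in both comparisons, MLL, MLL2, MLL3, SETD1A and SETD1B. This rescaling lowers the median log2 ratio of all genes to -0.18 and -0.15, and the median log2 ratios of the set were -0.47 and -0.54. With median-ratio scaling these medians were -0.28 and -0.38, with upper-quartile scaling -0.42 for si1, and with a pseudocount of 1 FPKM -0.29 and -0.35. That pseudocount ended the calls of MLL3 with the ZSCAN5A siRNAs, at -0.50, and of MLL with si1, at -0.54, and left 2 and 3 genes past the limit. With an expression limit of 5 FPKM, which leaves fewer genes, the counts were 1 and 2 and the medians -0.19 and -0.31. The smaller fold limit that was tried gave 5 with the ZSCAN5A siRNAs and 6 with si1, and a limit of 2 gave 2, MLL2 and SETD1B, and 0. limma at an adjusted p below 0.05 gave 0 in both comparisons, against 5 of the 10 at an unadjusted p below 0.05 in each, beside 12.3% and 9.92% of all 13078 genes, with a spread that came from si4 against si5 alone. At the adjusted limit it called 10 genes in all with the ZSCAN5A siRNAs and 15 with si1. An alternative chosen after seeing the data removed the medians of genes in the same decile of coding length and of like GC content. With it si1 had 2 genes past the limit, and the medians were -0.14 with the ZSCAN5A siRNAs and -0.25 with si1. The cause of these shifts was not tested. Without either ZSCAN5A siRNA the count was 3, and the median ranged from -0.33 to -0.31. Among all genes, 492 were past the limit with the ZSCAN5A siRNAs and 518 with si1 as reported. These counts became 2512 and 2364 without an expression limit, 205 and 252 with a limit of 5 FPKM, 1009 and 962 with the same sum, 250 and 262 with a pseudocount of 1 FPKM, 73 and 67 at a fold limit of 2, 2404 and 2522 at the smaller limit, and 274 and 323 with length and GC medians removed. With si4 alone the count was 822, and 241 genes were past the limit with each ZSCAN5A siRNA. Of 140 values of single genes under alternatives, 92 stayed within the SD between si4 and si5. That number is no measure of stability. Values with 1 ZSCAN5A siRNA left out lie within this SD almost by construction. The si1 values were set against the same SD, which holds no spread of si1. Of the 140 values, 136 kept their sign. The exceptions were RBBP5, at -0.06 with the ZSCAN5A siRNAs and -0.13 with si1 after rescaling to the same sum and at -0.01 with si1 after upper-quartile scaling, and ASH2L, at 0.03 with si1 after removal of length and GC medians. No paired analysis was possible because each siRNA and the control had 1 library. Summing rows that share a symbol changes nothing for the 10 genes, each of which had 1 row. With 1 control library, a peculiarity of that library and an effect of the siRNAs cannot be told apart.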
